A study of Homo sapiens with 12 samples.

Results

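The genes described here carry the family symbol ZNF followed by a number, the name given to human genes whose products hold zinc fingers, mostly of the C2H2 kind. Every gene whose symbol was ZNF, digits and at most 1 final letter was taken from the probe sets that the array annotation assigns to a single gene. Of 466 such genes, 128 had a probe set with a log2 signal of at least 7 on at least 2 of the 12 arrays, and each was represented by its probe set of highest mean. The same filter kept 7712 of the 19775 genes on the array.

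C2H2 zinc finger genes form the most numerous class of human transcription factors. In many of them an array of fingers that reads DNA is joined to a KRAB domain, which recruits TRIM28 (KAP1) and the histone methyltransferase SETDB1 and so silences transposable elements and other targets. They lie in clusters, above all on chromosome 19, where related genes arose by repeated local duplication, and their transcripts are as a class low in abundance and quickly degraded. Some ZNF proteins do other work, in mitosis, ribosome quality control, splicing or SUMO transfer.

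RNA came from HCT116, an established human colorectal cancer cell line, arrested at the start of S phase by a double thymidine block and then released. The tested cells were released into nocodazole, which depolymerizes microtubules and holds cells in mitosis, and were taken at 7, 8, 9 and 10 h. The control cells were released into DMSO, the solvent, and were taken at 0, 2, 4 and 6 h and at the same 4 later times, so that all 12 samples share the cell line and the thymidine block. Each condition had 1 array, so neighbouring hours stand in for replicates and every p-value measures the spread among those hours. A lower signal can reflect fewer cells with the transcript or less RNA per cell, which cannot be told apart in a whole culture.

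The labelled cell type was checked on 5 epithelial markers, which lay between 10.5 and 14.7 (log2) on all arrays, while the 3 blood markers with a value lay between 1.53 and 4.05. Of 5 fibroblast markers 4 lay between 3.101 and 3.93, while COL1A1 lay between 7.50 and 8.95 and was higher at 9 and 10 h of nocodazole (difference 1.0003, adjusted p = 0.0238 by limma, and 0.37, adjusted p = 0.258, as deposited). Its part in the ZNF values was not tested. The nocodazole arrays of 9 and 10 h stood apart as deposited. Their median signals over kept probe sets were 9.04 and 8.93, against 9.53 to 9.56 in the nocodazole arrays of 7 and 8 h and 9.23 to 9.73 in the DMSO arrays. Values below are log2 signals after quantile normalization, which gives all arrays 1 distribution, and the directions of the ZNF genes and of the gene lists at 9 and 10 h were also read on 2 other scalings. The DMSO array of 4 h had a mean 18S ribosomal RNA signal of 8.32, against 3.55 to 4.05 on the other 11 arrays. The part of this in the 4 h values given below was not tested.

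ZNF transcripts gave lower signals than other genes. Their median level was 8.24 (quartiles 7.21 and 9.14), against 9.70 for the 7584 other genes past the filter. The brightest were ZNF146, whose protein consists of zinc fingers alone, at a mean of 13.09, ZNF706 at 12.82, ZNF207 at 12.74, ZNF664 at 12.36 and ZNF121 at 11.59. These are signals of single probe sets and do not rank the genes by transcript number. Of the 128 genes, 73 reached 7 on all 12 arrays and 14 on only 2 or 3. Just inside the filter were ZNF683, ZNF268 and ZNF280C, with second-highest deposited values of 7.01, 7.02 and 7.10, and just outside it ZNF777, ZNF107 and ZNF592, with 6.98, 6.95 and 6.93. Among the 338 genes left out, 265 did not reach 5 on any array.

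The 128 genes were not 1 kind of locus. On chromosome 19 lay 46 of them, 13 lay on chromosome 7 and 11 on chromosome 16, and 126 are protein coding, the others being the transcribed pseudogenes ZNF271P and ZNF252P. The probe sets differed in kind as well. A plain probe set was available for 84 genes, while 23 had a probe set of type s, 18 of type x and 3 of type a, names by which the manufacturer marks probes that can match several transcripts. For these 44 genes a value may sum related transcripts.

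Over the DMSO course the median spread of the ZNF genes was larger than that of other genes. The median SD over the 8 DMSO arrays was 0.299, against 0.236 for other genes, and the median range was 0.856, against 0.672. Since dim genes vary more on arrays, classes of like level were set side by side. At a mean level of 7 to 8 the median SD was 0.291 in 35 ZNF genes and 0.315 in 1020 others, and at 8 to 9 it was 0.288 in 32 and 0.287 in 1349. Below 7 it was 0.582 in 25 ZNF genes, against 0.434 in 385 others, and at 9 to 10 it was 0.316 in 21, against 0.245 in 1508. At 10 and over it was 0.206 in 15, against 0.174 in 3322. A natural cubic spline over time (limma, Benjamini-Hochberg adjusted p under 0.05 over all 7712 genes) was passed by 49 of the 128 ZNF genes, or 38.3%, against 45.4% of all genes. In the level classes in rising order 44%, 20%, 34.4%, 57.1% and 53.3% of the ZNF genes passed. Of the other genes 37.1%, 31.9%, 41.3%, 46.9% and 51.9% did. The steadiest were ZNF706, ZNF746 and ZNF507, with SDs of 0.066, 0.082 and 0.087.

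**Figure D1:**
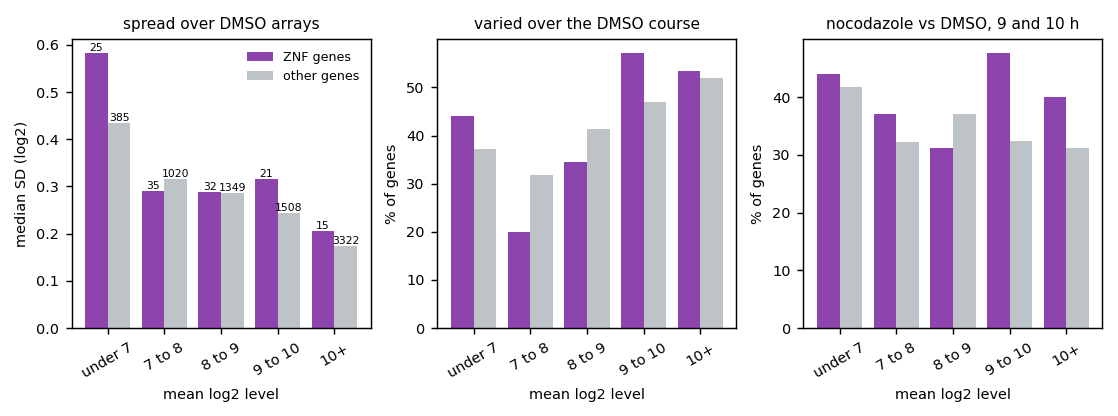
Median SD over the 8 DMSO arrays (left, log2), percent of genes that passed the test of the DMSO course (middle) and percent that differed between nocodazole and DMSO at 9 and 10 h (right), for ZNF genes (purple) and other genes (grey) by mean log2 level, with the number of genes above the bars of the left panel. At levels of 7 to 9 the ZNF and other genes have similar SDs (0.291 and 0.315, then 0.288 and 0.287), while below 7 the ZNF genes lie higher, at 0.582 against 0.434.

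The 49 genes that passed the course reached their highest DMSO value mostly late. Of these, 35 (71.4%) were highest at 7 to 10 h, 10 (20.4%) at 0 to 4 h and 4 (8.16%) at 6 h, against 38.8%, 54.4% and 6.79% of all 3505 genes that passed. The lowest value lay at 0 h in 17 (34.7%), against 18.4%. All 5 mitosis markers (such as PLK1 and CDC20) were higher at 6 to 8 h than at 0 to 4 h on these arrays. The course used all 8 arrays, with no direction assigned.

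ZNF165, a gene otherwise known from testis and tumours, had the largest SD of the 128, at 1.55. It measured 5.67, 8.28, 8.35, 9.14, 8.15, 6.98, 5.50 and 5.11 over the 8 DMSO hours in order (adjusted p = 0.00039 by limma). The 4 hours from 2 to 7 h were all above 8, and the values of 0, 9 and 10 h all below 6. ZNF827, which recruits the NuRD complex to telomeres kept by recombination, measured 7.51, 8.43, 9.52, 10.40, 9.84, 9.63, 9.13 and 9.33 over the same hours (adjusted p = 0.00046). It was lowest at 0 h and, like ZNF165, highest at 6 h. ZNF217, an oncogene amplified in breast cancer, measured 7.96, 9.40, 9.75, 9.47, 8.65, 8.01, 7.71 and 7.57 (adjusted p = 9.2e-05, the smallest among the ZNF genes). Its 3 highest values were those of 2, 4 and 6 h.

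Other courses ran upward through division. ZNF22 went upward through most of the course, with 6.45 at 0 h, 7.74 at 6 h and 8.26 at 10 h (adjusted p = 0.00062). ZNF518B was lowest at 4 h, at 8.61, and highest at 10 h, at 9.91 (adjusted p = 0.00051). ZNF268 lay between 4.55 and 4.77 at 0 to 6 h and between 6.37 and 6.97 at 7 to 10 h, 2 sets of 4 arrays that do not overlap. It is a dim gene that passed the filter through the DMSO arrays of 7 and 8 h alone, both in the higher set, so the filter favoured this order and the values are a description.

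**Figure D2:**
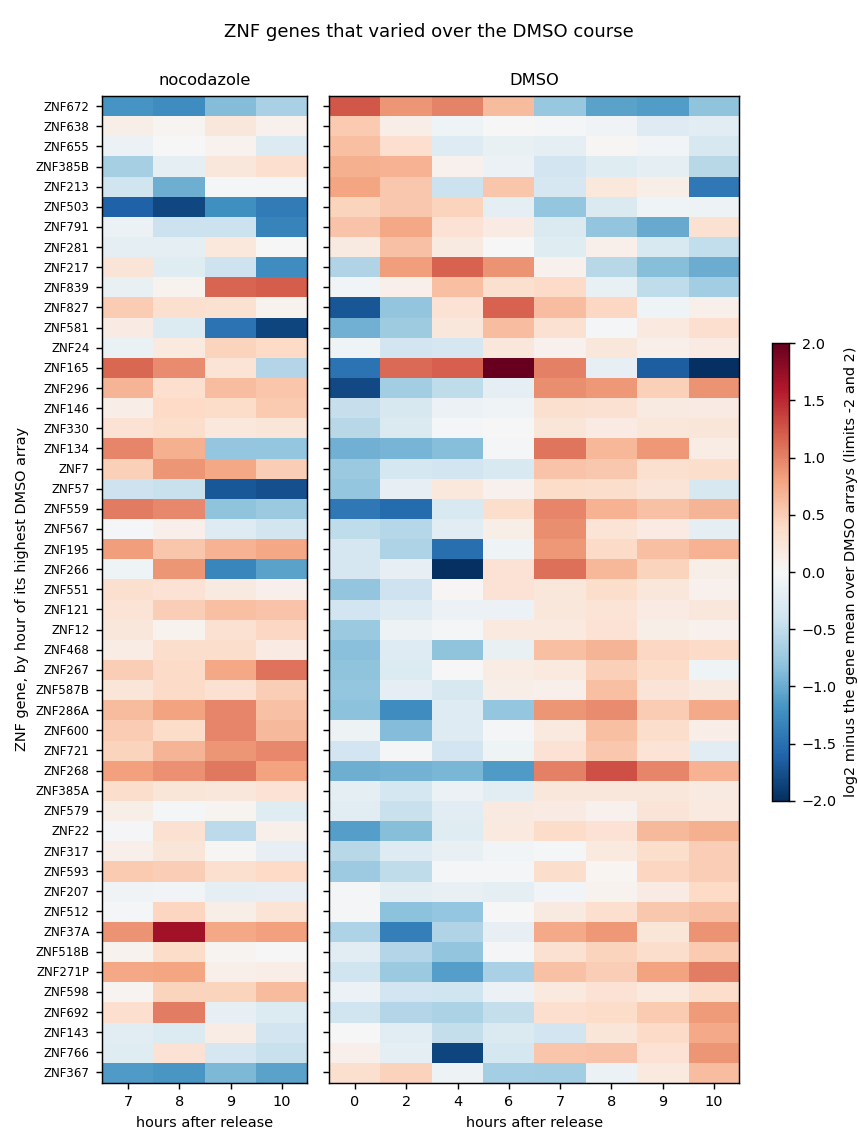
Log2 signal of the 49 ZNF genes that passed the test of the DMSO course, minus each gene's mean over the 8 DMSO arrays, by hour after release with nocodazole (left) and DMSO (right), in the order of the hour of the highest DMSO value. Red is above and blue below that mean. Most rows turn red in the DMSO columns of 7 to 10 h, and ZNF503 and ZNF367 are blue in all 4 nocodazole columns.

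The passage of S phase into G2 and mitosis was tested by comparing the window of 6 to 8 h with that of 0 to 4 h. Here 14 of the 128 ZNF genes passed, or 10.9%, against 13.3% of all genes. More rose than fell: 12 genes were higher at 6 to 8 h (6.79% of all genes were) and 2 were lower (6.48% of all genes were). The median difference of the ZNF genes was 0.04 (quartiles -0.26 and 0.46), against -0.08 for other genes (quartiles -0.29 and 0.15), with 69 members above 0 and 59 below. Of the 14, 4 (ZNF134, ZNF37A, ZNF559 and ZNF567, all higher) reached the filter level of 7 in the later window and on no array of the earlier one, so that the filter favoured their direction. Among the 73 ZNF genes at 7 or more on all 12 arrays, 5 were higher and 1 was lower (6.85% and 1.37%), against 6.81% and 6.5% of all 6460 such genes. As deposited, 22 rose and 1 fell (8.42% and 1.28% of all genes), and after centring each array on its median, a scaling added after the data had been seen, 17 rose and 4 fell (5.89% and 11.4%). The median difference of all genes was 0.07 as deposited and -0.15 after centring. These calls are fragile, though the counts that follow have no share of all genes beside them and may not be particular to the ZNF genes. Without the 2 h, the 7 h or the 8 h array no ZNF gene passed (limma, with 34, 28 and 36 at an unadjusted p under 0.05), without the 0 h array 6 passed, without the 9 h or the 10 h array 3, and without the 6 h array 33.

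ZNF559 had the largest rise. It measured 6.82, 7.45 and 7.17 in the later window (6, 7 and 8 h), against 5.04, 4.94 and 6.17 in the earlier one (0, 2 and 4 h), windows that do not overlap (difference 1.77, SE 0.34, adjusted p = 0.0204 by limma). ZNF296 measured 8.27, 9.38 and 9.32 in the later window, against 6.65, 7.76 and 7.94 in the earlier one (1.54, SE 0.39, adjusted p = 0.0362). The 0 h array was lowest and the later arrays were all above the earlier ones. ZNF134 rose by 1.49 (SE 0.32), ZNF37A by 1.35 (SE 0.36) and ZNF195 by 1.21 (SE 0.32), with adjusted p of 0.0234, 0.0432 and 0.0423. The other 7 that rose were ZNF22, ZNF468, ZNF567, ZNF518B, ZNF587B, ZNF146 and ZNF24, named after their values were seen. Of the 12, 7 lie on chromosome 19, where 46 of the 128 members lie.

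ZNF672 and ZNF503 fell. ZNF672 measured 7.89, 6.51 and 6.19 in the later window, against 8.51, 8.15 and 8.25 in the earlier one (difference -1.44, SE 0.39, adjusted p = 0.0448), having reached 7 as deposited on the arrays of 0 to 6 h alone, and stayed between 6.15 and 6.46 at 9 and 10 h. The fall lay between the 6 h and the 7 h array, and the call was lost under 11 of 16 alternative settings, the deposited scaling among them. ZNF503, a repressor of the NET family active in development, measured 11.56, 10.97 and 11.44, against 12.18, 12.28 and 12.18 (-0.89, SE 0.14, adjusted p = 0.0151). Both windows were bright and did not overlap.

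**Figure D3:**
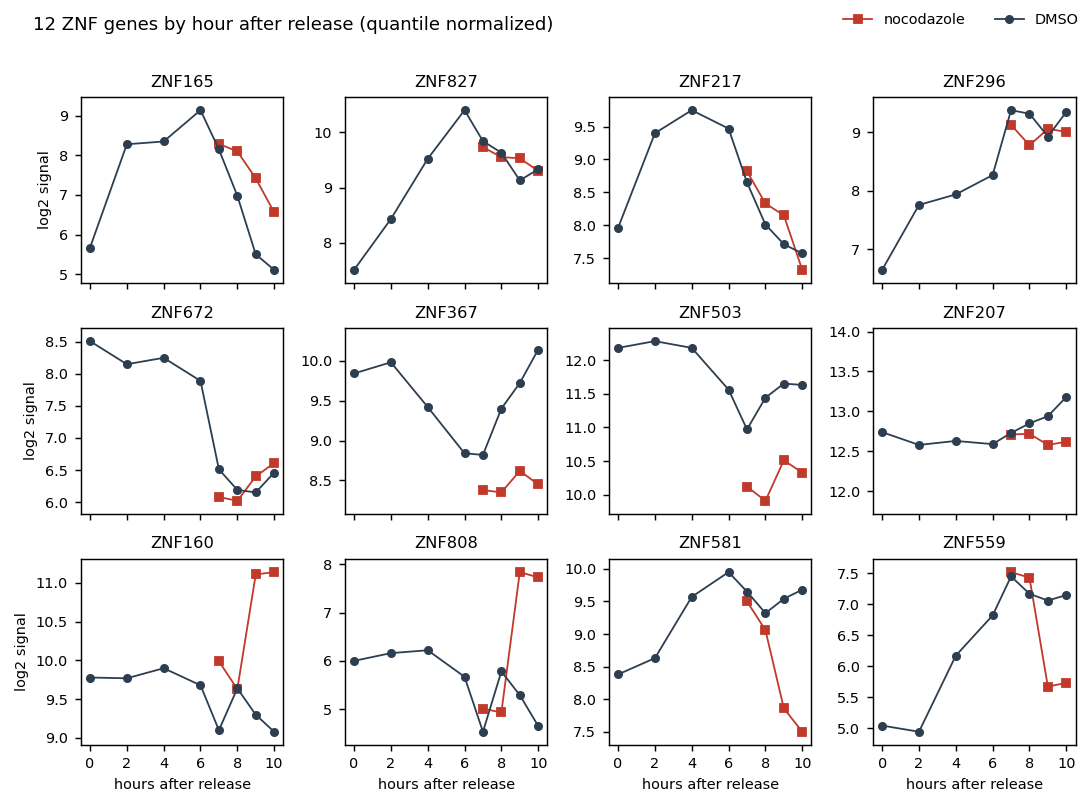
Log2 signal of 12 ZNF genes by hour after release, with nocodazole (red squares, 7 to 10 h) and DMSO (dark circles, 0 to 10 h), 1 array per point, each panel with its own scale of at least 2 units. ZNF503 lies lower with nocodazole at all 4 hours, while ZNF160 and ZNF808 rise above DMSO, and ZNF581 and ZNF559 fall below it, at 9 and 10 h.

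Exit from mitosis was addressed by comparing 9 and 10 h with 6 to 8 h. No ZNF gene passed, and 0% of all genes did (limma, with 6 ZNF genes at an unadjusted p under 0.05). The smallest p belonged to ZNF367, a zinc finger transcription factor gene. It measured 9.72 and 10.14 in the later window, against 8.84, 8.82 and 9.40 in that of 6 to 8 h (difference 0.91, SE 0.24, adjusted p = 0.406), windows that do not overlap. ZNF165 differed by -2.78 (SE 0.82, adjusted p = 0.439) and ZNF207 by 0.34 (SE 0.10, adjusted p = 0.478).

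Under nocodazole the members split by hour. At 7 and 8 h the medians of the nocodazole minus DMSO differences were 0.003 and -0.09, and 1 ZNF gene passed the test over both hours, against 0.311% of all genes. At 9 and 10 h the medians were 0.17 and 0.11, against 0.02 and 0.002 for the 2382 other genes with a mean level between the ZNF quartiles. The spread widened as well. Differences of at least 1 upward were found in 2, 1, 12 and 18 ZNF genes at 7, 8, 9 and 10 h, and downward in 1, 3, 10 and 17. At 10 h this came to 14.1% upward and 13.3% downward of all 128 ZNF genes, against 7.18% and 8.27% of those 2382 genes. These sets were not matched in level. The 128 include 25 genes with a mean below 7, with a median SD of 0.582 over the DMSO arrays, and the 2382 include none so dim.

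ZNF503 was the 1 ZNF gene that passed over all 4 hours, where 0.584% of all genes passed. It measured 10.12, 9.91, 10.51 and 10.33 at 7, 8, 9 and 10 h with nocodazole, against 10.97, 11.44, 11.65 and 11.63 with DMSO. The 4 nocodazole values all lay below the 4 DMSO values (difference -1.20, SE 0.11, adjusted p = 0.0075 by limma with the hour as a block). At 7 and 8 h alone the difference was -1.19 (SE 0.14, adjusted p = 0.0187), and ZNF503 was again the only ZNF gene to pass. The difference did not pass a test of change between the early and the late pair of hours (change -0.02, SE 0.20, adjusted p = 0.952). The call over all 4 hours was lost without the 9 h arrays (adjusted p = 0.146), without an intensity trend and with no level filter, and the early call without the 8 h arrays.

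ZNF367 was also lower at each hour, at 8.38, 8.35, 8.62 and 8.45 with nocodazole, against 8.82, 9.40, 9.72 and 10.14 with DMSO. The groups did not overlap, but the difference over 7 to 10 h did not pass (-1.07, SE 0.19, adjusted p = 0.0709). At 9 and 10 h it did (-1.39, SE 0.20, adjusted p = 0.0023). All 5 G1/S markers (CCNE1, CCNE2, CDC6, ORC1 and MCM5) were lower with nocodazole at those hours, and their part in the ZNF367 value was not tested. Its probe set is of type x.

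The promoters of ZNF367 and ZNF503 are shown because these genes were lower at every nocodazole hour. Each window runs from 250 bases before to 50 bases after the transcription start (RefSeq, GRCh38.p14), on the minus strand at chr9:96418321-96418620 for ZNF367 and at chr10:75401867-75402166 for ZNF503. Capitals mark matches on either strand to TTTNGCGC, an E2F motif, to TTTGAA, the CHR element of genes expressed in G2 and mitosis, or to CCAAT. No match to AANATGGC, a YY1 motif, was found in them.
ZNF367: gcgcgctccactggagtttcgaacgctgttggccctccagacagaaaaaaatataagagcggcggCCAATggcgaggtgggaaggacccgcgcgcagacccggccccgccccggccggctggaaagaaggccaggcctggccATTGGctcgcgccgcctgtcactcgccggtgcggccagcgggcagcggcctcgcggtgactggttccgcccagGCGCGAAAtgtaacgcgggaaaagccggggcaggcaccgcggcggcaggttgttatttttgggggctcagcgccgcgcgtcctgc
ZNF503: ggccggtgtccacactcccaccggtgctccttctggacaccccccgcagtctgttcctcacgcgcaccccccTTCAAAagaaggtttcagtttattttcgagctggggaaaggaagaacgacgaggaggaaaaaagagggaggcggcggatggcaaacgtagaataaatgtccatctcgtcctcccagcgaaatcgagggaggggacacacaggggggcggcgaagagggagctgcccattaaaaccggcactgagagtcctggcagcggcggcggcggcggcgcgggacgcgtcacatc
The ZNF367 window held 1 E2F match and 2 CCAAT matches, and the ZNF503 window 1 CHR match. Among the 110 ZNF genes with an entry, 4.55% held the E2F motif, 13.6% CHR, 43.6% CCAAT and 9.09% YY1, against 3.26%, 9.66%, 37.4% and 12.3% of the 6378 other genes past the filter and 1.83%, 15.4%, 35.7% and 6.82% of all 27305 genes in the table. A match is a run of letters and not a measured binding site.

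At 9 and 10 h of nocodazole 50 of the 128 ZNF genes differed from DMSO, or 39.1%, against 33.2% of all genes. Higher were 29 (16.1% of all genes were) and lower were 21 (17.1% of all genes were). The share passing was 44%, 37.1%, 31.2%, 47.6% and 40% in the 5 level classes in rising order, against 41.8%, 32.3%, 37.1%, 32.4% and 31.2% of the other genes. The split between higher and lower depended on the scaling. As deposited 59 passed (51.5% of all genes), 9 of them higher and 50 lower (2.65% and 48.8% of all genes), with the median of all genes at -0.47. After centring on the median 56 passed (45.9% of all genes), 37 higher and 19 lower (31% and 14.9%), with that median at 0.14. Relative to the other genes the ZNF median was 0.18 higher on quantile normalized values and 0.06 higher as deposited. Centring shifts all genes of an array alike, so it leaves this last value unchanged. Without the 10 h arrays 25 ZNF genes passed.

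**Figure D4:**
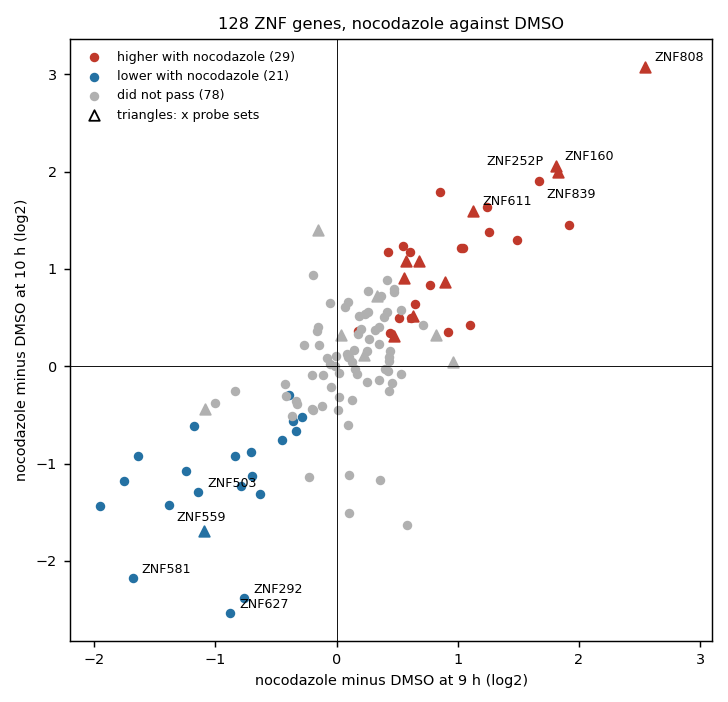
Nocodazole minus DMSO (log2, quantile normalized) at 9 h (horizontal) and 10 h (vertical) for the 128 ZNF genes, 1 array per treatment and hour, with triangles for probe sets of type x. Red points (29) passed as higher and blue points (21) as lower, and all of them lie on the same side of 0 at both hours, with ZNF808 at the top right.

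**Figure D5:**
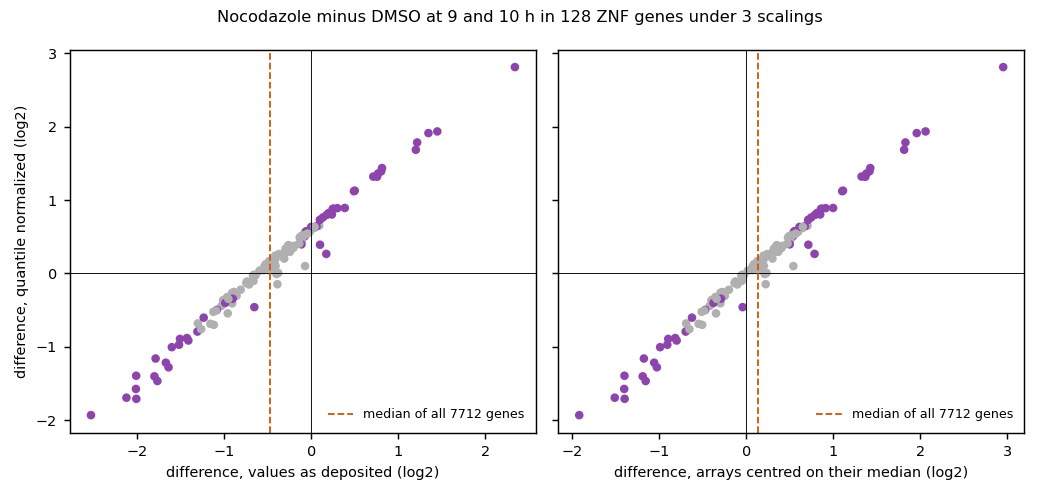
Difference between nocodazole and DMSO at 9 and 10 h in the 128 ZNF genes on quantile normalized values (vertical), set against the deposited values (left) and the values centred on each array's median (right), in log2, with the 50 genes that passed on quantile normalized values in purple. The dashed line is the median of all 7712 genes, at -0.47 and 0.14, and the points rise together in both panels.

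Directions that held on all 3 scalings, passing each time, were found for 9 genes that were higher and 18 that were lower, or 7.03% and 14.1%, against 2.59% and 12.6% of all genes. The 9 were ZNF160, ZNF165, ZNF205, ZNF252P, ZNF611, ZNF688, ZNF786, ZNF808 and ZNF839. The filter fixed the direction of ZNF808 and ZNF252P, as described below. The deposited and centred differences are apart by the same amount in every gene. A gene higher as deposited is therefore always higher after centring, and a gene lower after centring is always lower as deposited. The 3 scalings are thus not 3 separate checks of direction. ZNF281, ZNF600, ZNF638 and ZNF689 passed as higher on quantile normalized values but had differences between -0.11 and -0.06 as deposited, none of which passed.

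ZNF808, a KRAB zinc finger gene needed in people for the pancreas to form, had the largest upward difference. It measured 7.84 and 7.73 at 9 and 10 h with nocodazole, against 5.29 and 4.65 with DMSO (difference 2.81). The nocodazole values were above all the other 10 arrays, which lay between 4.53 and 6.22. ZNF252P measured 7.49 and 7.81 with nocodazole, against 5.66 and 5.81 with DMSO. Both genes passed the level filter through nocodazole arrays alone, which fixed their direction, so their values are a description. Without them 27 of 126 ZNF genes were higher, 7 of them on all 3 scalings. Without all genes at 7 or more in 1 treatment only, 27 of 120 ZNF genes were higher, or 22.5%, against 16.2% of all 7537 such genes. Of the same 120, 21 were lower, or 17.5%, against 16.8%. Besides ZNF808 and ZNF252P, 6 ZNF genes passed the filter through DMSO arrays alone, and none of these passed the test (limma, smallest adjusted p = 0.0738). Of all 154 genes that passed the filter in this way, 60 passed the test, or 39%, with 55 lower and 5 higher. The filter thus favoured a direction on this side as well. Among the 73 ZNF genes at 7 or more on all 12 arrays, 28 passed at 9 and 10 h, or 38.4%, against 31.7% of all 6460 such genes. Of these 28, 19 were higher (26%, against 16.6%) and 9 lower (12.3%, against 15.1%).

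ZNF160 and ZNF611 were bright on every array. ZNF160 measured 11.11 and 11.14 at 9 and 10 h with nocodazole, against 9.30 and 9.08 with DMSO (difference 1.94, SE 0.19, adjusted p = 0.00075 by limma), and ZNF611 measured 9.77 and 10.18, against 8.64 and 8.58 (1.36, SE 0.19, adjusted p = 0.0021). All 4 nocodazole values were above the highest values of the same genes on the other 10 arrays. ZNF839 measured 7.64 and 7.69, against 5.97 and 5.79 (1.79, SE 0.29, adjusted p = 0.0036), and ZNF165 measured 7.42 and 6.56, against 5.50 and 5.11 (1.69, SE 0.29, adjusted p = 0.0049). For ZNF165 the values went down with the hour in both treatments, and the nocodazole values lay above DMSO at all 4 hours (8.29, 8.10, 7.42 and 6.56, against 8.15, 6.98, 5.50 and 5.11).

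Many of the genes that were higher shared a kind of probe set. Of the 18 ZNF genes with a type x probe set, 10 were higher and 1 was lower at 9 and 10 h, with a median difference of 0.60, while of the 84 with a plain probe set 17 were higher and 14 lower, with a median of 0.11. Without ZNF808 and ZNF252P, 8 of 16 with type x were higher. Among other genes, 153 of 511 with a type x probe set were higher and 64 lower (median 0.10), against 661 and 729 of 4267 with a plain one (median -0.02). The 10 were ZNF93, ZNF160, ZNF252P, ZNF254, ZNF600, ZNF611, ZNF638, ZNF665, ZNF680 and ZNF808, and those for ZNF600 and ZNF638 changed sign as deposited. The part of shared probes in these values was not tested. Where genes that passed at 9 and 10 h had another kept probe set, 11 of 15 such probe sets had the same direction.

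A region of chromosome 19 held several of these genes. The region that holds ZNF766, ZNF808, ZNF83, ZNF611, ZNF600, ZNF468, ZNF160, ZNF665 and ZNF765, in which neighbouring members lie no more than 1 Mb apart, was singled out after its values were seen. Of these 9, 5 were higher at 9 and 10 h of nocodazole, 1 (ZNF766, at -0.97) was lower and 3 did not pass, with a median of 0.58. Without ZNF808, 4 of 8 were higher. ZNF665 differed by 0.88 (SE 0.22, adjusted p = 0.0195) and ZNF765 by 0.53 (SE 0.18, adjusted p = 0.052). All 5 that were higher have type x probe sets, and that of ZNF600 was below 0 as deposited. Over chromosome 19 as a whole 11 of 46 were higher and 11 lower, with a median of 0.05, against 18 and 10 of 82 elsewhere, with a median of 0.19.

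The promoters of the neighbours ZNF611 and ZNF808 are shown because both were higher at 9 and 10 h of nocodazole and share sequence. The windows are those of RefSeq (GRCh38.p14) on the minus strand at chr19:52734995-52735294 for ZNF611 and on the plus strand at chr19:52527418-52527717 for ZNF808, and capitals mark the longest run of letters common to both, 37 bases that span the transcription start.
ZNF611: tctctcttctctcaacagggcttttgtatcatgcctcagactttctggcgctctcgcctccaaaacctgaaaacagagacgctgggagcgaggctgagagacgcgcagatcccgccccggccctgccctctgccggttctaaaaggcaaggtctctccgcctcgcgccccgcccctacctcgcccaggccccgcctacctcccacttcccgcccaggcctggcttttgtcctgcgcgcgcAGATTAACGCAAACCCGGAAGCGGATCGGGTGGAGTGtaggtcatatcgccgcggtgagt
ZNF808: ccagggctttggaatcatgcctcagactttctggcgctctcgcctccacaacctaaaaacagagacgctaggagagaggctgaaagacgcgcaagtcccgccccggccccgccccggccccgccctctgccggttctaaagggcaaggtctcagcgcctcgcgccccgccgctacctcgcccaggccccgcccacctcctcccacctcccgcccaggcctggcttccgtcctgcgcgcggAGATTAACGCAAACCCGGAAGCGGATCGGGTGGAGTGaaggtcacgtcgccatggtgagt
Of the 27305 promoters in the table, only these 2 held the run on either strand. The windows matched at 54.9% of 286 bases without gaps, against 36.7% of 300 bases for ZNF160 and ZNF611, whose longest common run was 10 bases. None of the 4 motifs above was found in the 3 windows.

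Of the 5 largest falls at 9 and 10 h, 4 also belonged to chromosome 19 (ZNF581, ZNF627, ZNF57 and ZNF266), and ZNF292 to chromosome 6. ZNF581 measured 7.86 and 7.50 with nocodazole, against 9.54 and 9.68 with DMSO (difference -1.93, SE 0.16, adjusted p = 0.00041), below the other 10 arrays, which lay between 8.38 and 9.95. ZNF57 measured 5.87 and 5.80, against 7.82 and 7.24 (-1.69, SE 0.24, adjusted p = 0.0024). ZNF627 measured 6.30 and 4.59, against 7.18 and 7.13, and ZNF292 measured 6.68 and 5.44, against 7.44 and 7.83. In these last the 10 h array alone carried most of the fall, and without it neither passed. ZNF266 (-1.47, SE 0.36, adjusted p = 0.0177) lost its call under 4 of 12 alternatives, with values between -1.77 and -0.78 over the 12. These were no level filter, no intensity trend, normalization over the kept probe sets and leaving out the 9 h arrays.

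Whether the effect of nocodazole changed with time was tested directly, as the difference at 9 and 10 h minus that at 7 and 8 h. Of the 128 ZNF genes 9 passed, or 7.03%, against 3.6% of all genes, 6 upward (2% of all genes) and 3 downward (1.61%). The 6 include ZNF808 and ZNF252P, with 2.997 and 2.07, whose direction the filter fixed. Without the genes at 7 or more in 1 treatment only, 7 of 120 passed, or 5.83%, against 3.53% of all 7537 such genes, 4 upward (1.96% of these) and 3 downward (1.57%). Among the 4, ZNF839 changed by 1.94 (SE 0.41, adjusted p = 0.0416). ZNF581 changed by -1.73 (SE 0.22, adjusted p = 0.022), ZNF559 by -1.57 (SE 0.34, adjusted p = 0.0441) and ZNF830, whose mouse counterpart guards genome integrity in the embryo, by -1.28 (SE 0.23, adjusted p = 0.0323). ZNF559 measured 7.52, 7.43, 5.67 and 5.73 at 7, 8, 9 and 10 h with nocodazole, against 7.45, 7.17, 7.06 and 7.15 with DMSO, so that the treatments differed at 9 and 10 h and lay within 0.26 of each other before. As deposited ZNF559 reached 7 on the DMSO arrays of 7 to 10 h and the nocodazole arrays of 7 and 8 h. It did not on the nocodazole arrays of 9 and 10 h, so the filter may have favoured its fall. No ZNF gene passed without the 8 h arrays (limma, 22 at an unadjusted p under 0.05), 1 passed without the 10 h arrays and 19 without the 9 h arrays. As deposited 29 passed (22.6% of all genes), 4 upward and 25 downward (1.06% and 21.5%), and after centring 27 (20.5%), 20 upward and 7 downward (14.8% and 5.69%).

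Among 16 ZNF genes listed for roles apart from KRAB repression, 13 passed the filter and 8 of them passed the DMSO course (45.4% of all genes did). At 9 and 10 h of nocodazole 2 were higher, ZNF281 and ZNF638, both below 0 as deposited (16.1% of all genes were higher). Lower were 3, ZNF207, ZNF367 and ZNF622 (17.1% of all genes were). As deposited 0 of the 13 were higher and 7 lower (2.65% and 48.8% of all genes were). After centring 3 were higher and 2 lower (31% and 14.9% of all genes were). ZNF207 (BuGZ), which binds microtubules and delivers BUB3 to kinetochores, measured 12.58 and 12.62 with nocodazole, against 12.94 and 13.18 with DMSO (difference -0.46, SE 0.07, adjusted p = 0.0028). The 4 values do not overlap, and ZNF207 was also highest at 10 h over the DMSO course (adjusted p = 0.0013). The 4 other ZNF207 probe sets disagreed in direction. Those at means of 11.55 and 6.24 differed by -0.31 and -0.08, and those at means of 7.37 and 6.67 by 0.92 and 3.39. After centring on the median the difference of ZNF207 was -0.04 (adjusted p = 0.831) and that of ZNF622 -0.29 (adjusted p = 0.0583).

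Of the genes of ribosome surveillance and assembly, ZNF598 and ZNF593 passed the course and ZNF622 passed at 9 and 10 h. ZNF598, which ubiquitinates stalled ribosomes, had an adjusted p of 0.0067 over the course, with 8.69 at 4 h and 9.45 at 10 h, and differed by 0.27 under nocodazole (adjusted p = 0.124). ZNF593, a factor of large subunit assembly, had one of 0.0022, with 8.91 at 0 h and 10.13 at 10 h. ZNF622, which acts late in the assembly of that subunit, was lower at 9 and 10 h (difference -0.34, SE 0.11, adjusted p = 0.0468). ZNF326, a subunit that couples transcription to splicing, ZNF451, a SUMO ligase, ZNF148 and ZNF274, which brings SETDB1 to ZNF genes themselves, passed neither test, with differences of -0.36, 0.11, 0.57 and -0.32 at 9 and 10 h. ZNF143, an activator bound at many promoters, passed the course, with 7.24 at 4 h and 8.48 at 10 h, and differed by -0.68 (adjusted p = 0.081).

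The list of the KRAB corepressor machinery held 21 symbols, with older names of TASOR and RESF1 among them. All 19 genes that it stands for passed the filter. Of these, 9 passed the course (45.4% of all genes did), and 3 were higher and 3 lower at 9 and 10 h of nocodazole (16.1% and 17.1% of all genes were). As deposited 1 was higher and 6 were lower (2.65% and 48.8% of all genes were). After centring 8 were higher and 1 was lower (31% and 14.9% of all genes were). The same shares apply to the lists that follow. Higher were ATF7IP, a partner of SETDB1 (1.56, SE 0.14, adjusted p = 0.00048), RESF1 and DNMT1, of which DNMT1 was at -0.05 as deposited. Lower were CHD4, UHRF1 and TRIM28 itself (-0.28, SE 0.06, adjusted p = 0.0139), of which UHRF1 and TRIM28 were above 0 after centring, at 0.06 and 0.33. Other finger families, the ZFP, ZBTB, ZSCAN and ZKSCAN genes, had 29 genes past the filter, of which 4 were higher and 12 lower against the same 16.1% and 17.1%, with a median of -0.19 (0 and 20 as deposited, 6 and 12 after centring). ZKSCAN8 (-1.73, SE 0.25) and ZBTB10 (-1.33, SE 0.23) were among the 12 and were lower on all 3 scalings. Short-lived transcripts of other families, such as MYC, JUN and CDKN1A, passed the course in 17 of 19 cases, against 45.4% of all genes. At 9 and 10 h 3 were higher and 8 lower, against the same 16.1% and 17.1% (1 and 12 as deposited, 6 and 6 after centring). The 54 ribosomal protein genes, whose transcripts are stable, passed the course in 7 cases and had a median SD of 0.057. They were also brighter, with a median level of 15.38, against 10.62 for the short-lived list. The part of level in this contrast was not tested. All of these lists were described by their counts alone.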

How the data were processed

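RNA of each condition was hybridized to 1 Affymetrix U133 Plus 2.0 array, 12 in all. The deposited log2 values were computed by the authors with GC-RMA, as the methods and the processing notes state, with no version given. Whether this included a quantile step is not settled by the values. Probe sets assigned to 1 gene by the array annotation (41097 of 54675) were used, and 0 columns belonged to other samples. Values were quantile normalized over all probe sets, and genes whose deposited log2 value reached 7 on 2 or more arrays were kept. limma 3.58.1 (R 4.3.3) was fitted on all 7712 genes with an intensity trend, with a spline of 3 degrees of freedom or window means over the 8 DMSO arrays, and with the hour as a block or hour pairs over the 8 arrays of 7 to 10 h. The Benjamini-Hochberg threshold was 0.05. The scripts were tested on simulated data. There the window and nocodazole fits recovered most of the larger shifts, and the spline recovered most shifts that rose and fell smoothly over the course but missed most steps, so a gene that does not pass the course may still have changed abruptly. The smooth shape was added after the step had been missed. The number of arrays limits the precision.

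The ZNF genes, the gene lists and the tests were chosen with earlier results of these data known. Genes were named by rank. For each comparison these were the 5 largest passing changes per direction with groups that do not overlap, up to 3 per direction for the change between hour pairs, or the 3 smallest p where none passed. Also named were the 5 smallest p of the course, the 5 highest levels, the extremes of SD, the genes at the filter limit, the ZNF genes with other roles and some passing members of each list. RefSeq promoters were searched by letters. Alternatives were the deposited values, other normalizations, level filters, probe set means, no trend, another spline, other sets of arrays and each hour left out. Protein sequences were not analysed here.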

Additional observations from a re-analysis of the deposited data

Results flagged for a closer look

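In 9 ZNF genes the effect of nocodazole at 9 and 10 h differed from that at 7 and 8 h, each by the test of the change itself (limma, adjusted p under 0.05). The changes upward were 2.997 for ZNF808, 2.07 for ZNF252P, 1.94 for ZNF839, 1.49 for ZNF160, 1.45 for ZNF92 and 1.27 for ZNF611. The changes downward were -1.73 for ZNF581, -1.57 for ZNF559 and -1.28 for ZNF830. ZNF92 measured 9.02 and 9.34 with nocodazole at the late hours, against 7.97 and 8.13 with DMSO. The nocodazole arrays of 9 and 10 h had the lowest deposited medians of the 12, and the part of this in the changes was not tested. With 1 array per condition, no condition held enough samples to look for one apart from its replicates. ZNF808 and ZNF252P passed the level filter through nocodazole arrays alone, which fixed their direction. ZNF559 did not reach the filter level on the nocodazole arrays of 9 and 10 h, so the filter may have favoured its fall.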

How the results depend on the processing

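The DMSO course kept between 35 and 60 passing ZNF genes under all 16 alternatives, and the comparison of 9 and 10 h with 6 to 8 h stayed at 0. The other counts moved by more than 1.5 times under some settings. For 6 to 8 h against 0 to 4 h, 14 became 23 as deposited, 29 with all 12 arrays in the fit and 0 with no level filter (limma, 114 of 466 at an unadjusted p under 0.05). For nocodazole over 7 to 10 h and over 7 and 8 h, 1 became 0 with no level filter (limma, 55 and 17 at an unadjusted p under 0.05) or no intensity trend (28 and 13), and over 7 and 8 h 2 after centring on the median. At 9 and 10 h, 50 became 78 of 194 genes with a level minimum of 5 and 144 of 466 with none. For the change between hour pairs, 9 became 29 as deposited, 27 after centring, 22 with the minimum of 5, and 0 with no level filter or no intensity trend (174 and 44 at an unadjusted p under 0.05). More genes enter the fit where the level filter is lower, and the cause of the other moves was not tested. Shares of all genes are not given for the filter, trend and array settings or with an hour left out. The moves can therefore not be read as particular to the ZNF genes. Centring was chosen after seeing the data.

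With each hour left out in turn, the counts ranged from 37 to 51 for the course, 0 to 33 for 6 to 8 h against 0 to 4 h, 0 to 0 for 9 and 10 h against 6 to 8 h, 0 to 4 for nocodazole over 7 to 10 h, 0 to 1 over 7 and 8 h, 25 to 48 over 9 and 10 h and 0 to 19 for the change. For the genes named in these tests by rank, 450 alternative values were read, of which 94 lost their call. None reversed in sign, but the values of the course are ranges, which cannot reverse. The 3 genes named for 9 and 10 h against 6 to 8 h had no call to lose. ZNF281, ZNF600, ZNF638 and ZNF689 changed sign as deposited. Nocodazole and DMSO arrays were paired by hour, as the block of those fits, and each condition had 1 array, so no replicate number could pair samples. Dropping the hour as a block over 7 to 10 h left 1 passing gene.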
